A study of Mus musculus with 8 samples.

Results

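Secreted Wnt antagonists and the transcription factor Sox17 were examined here as a set of 10 genes (Sfrp1, Sfrp2, Sfrp4, Sfrp5, Frzb, Wif1, Dkk1, Dkk2, Dkk3 and Sox17) in reduced representation bisulfite sequencing (RRBS) of mouse mammary tumors. Members were the cytosines of CpG sites with at least 10 reads in all 8 libraries that lay within the GENCODE M21 body of these genes or the 2000 bp upstream. The rule found 230 of the 567907 cytosines that passed this minimum, in 8 of the 10 genes. Sfrp4 and Dkk1 had 0 cytosines that passed. RRBS reads short fragments that start at a CCGG restriction site. Of the 8826 CpG cytosines in these genes, 1203 were seen in any library, and 230 of those had the reads required in all 8.

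Tumors were grown from NIC-5231, 1 mouse cell line derived from an ErbB2-driven mammary tumor, in mammary fat pads of NSG mice (5 to 7 weeks old at injection), which lack mature lymphocytes. Once tumors could be felt, groups of 5 mice were injected into the peritoneum every 2 days with vehicle alone (saline with 30% PEG and 5% DMSO), with C29 at 10 mg/kg, with 5-azadC at 1 mg/kg, or with both. All groups thus received the vehicle. C29 is an inhibitor of the nuclear receptor ERRα, and 5-azadC (5-aza-2′-deoxycytidine, decitabine) is a cytidine analog that traps DNA methyltransferases. Each group had 2 libraries, each made from DNA of 2 mice combined, so pools and not single animals were the replicates, and mouse stroma in the tumor DNA cannot be told apart from the tumor cells.

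Wnt ligands signal by binding Frizzled receptors together with the co-receptors Lrp5 and Lrp6, which stabilizes β-catenin. Secreted frizzled-related proteins (the Sfrp genes and Frzb) and Wif1 bind the ligands outside the cell, Dickkopf proteins act on the co-receptors, and Sox17 is an HMG-box factor that can bind β-catenin in the nucleus. Promoters of several of these genes lie in CpG islands and are known to become methylated in carcinomas.

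The libraries held 51359825 to 81299065 reads over cytosines, with a median of 21 to 30 reads per cytosine, and unmethylated spike-in DNA read 0.216% to 0.329% methylated. Over all cytosines that passed, mean methylation was 33.6% to 34.9% in the 4 libraries without 5-azadC and 30.5% to 31.6% in the 4 with it. The epithelial genes Epcam, Cdh1, Krt18 and Cldn4 had start-site regions between 0% and 27.3% methylated in every library. Krt8, the other epithelial gene of this check, held too few start-site cytosines to be read. Start-site regions of the leukocyte, endothelial and fibroblast genes of that check (Ptprc, Cd3e, Pecam1, Cdh5 and Col1a1) held too few cytosines to be read, so the makeup of the tumors was not tested.

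Cytosines were grouped per gene into a start-site region (within 1000 bp of the start of any protein-coding transcript), the rest of the body, and the rest of the upstream sequence. Of the 230 cytosines, 149 lay in start-site regions, 73 in bodies and 8 further upstream. A region with at least 3 cytosines was tested, which gave 6 start-site regions and 5 bodies of these genes among 12793 start-site regions and 9724 bodies of all protein-coding genes. Percent methylation of a region is the share of methylated readings summed over its cytosines. A read is counted once at each cytosine it crosses, so readings in 1 cluster are not independent molecules, and a test on reads accounts for no more than counting error.

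In the vehicle libraries the start-site regions of these genes differed in level. Sfrp1 and Wif1 were nearly free of methylation, at a mean of 2.10% and 0% over the 2 vehicle libraries, and Sfrp2, Sfrp5, Sox17 and Dkk3 were partly methylated, at 17.0%, 26.8%, 30.9% and 47.6%. These are values of regions and not of promoters alone. The Dkk3 cytosines lay 706 to 974 bp downstream of the gene's start, and most of those of Sox17 lay 3559 to 4600 bp downstream. The median over all 12793 start-site regions was 0.928%, and 71.3% of them were under 10%, and among them Dkk3 stood at percentile 90.7, Sox17 at 84.5, Sfrp5 at 82.7 and Sfrp2 at 77.2. Bodies of Frzb, Wif1, Sfrp1 and Dkk3 stood at 69.6% to 90.5% and that of Sox17 at 41.6%, against a median of 76.7% over all bodies. Dkk3, at 69.6%, and Sox17 were below that median. At 64 of the 230 cytosines (27.8%) the 2 vehicle libraries were themselves at least 25 percentage points apart, against 17.5% of all cytosines, and that gap is the replicate error behind the comparisons with vehicle.

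**Figure D1:**
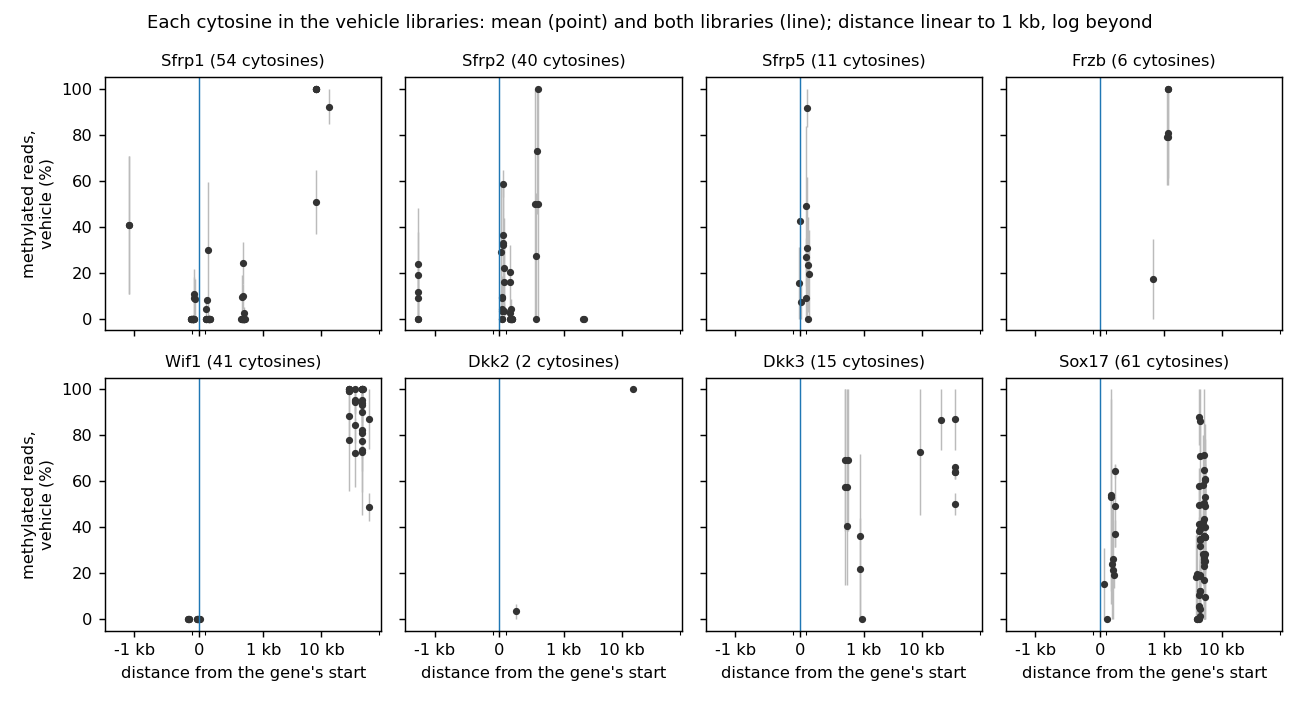
Percent methylation of each of the 230 cytosines in the vehicle libraries (points, mean of 2 libraries; grey lines, both libraries) against distance from the gene's start in bp, linear to 1 kb and logarithmic beyond. Cytosines around the starts of Sfrp1 and Wif1 sit near 0%, and those in the bodies of Wif1 sit mostly above 70%. The points of Sox17 spread widely without passing 90%, with long lines between the 2 libraries.

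Sfrp1 (ENSMUSG00000031548.7, chr8:23411502-23449632, plus strand, GRCm38) held 54 of the 230 cytosines. Sfrp1 is the best known member of the family of ligand-binding antagonists. Its start site is CpG-rich, with 150 CpGs within 1000 bp and an observed to expected ratio of 0.848, the highest of the 10 genes. The 46 cytosines of its start-site region fell in 3 clusters, 1 upstream of the start (-121 to -64 bp), 1 in the 5′ untranslated region and 1 in the coding part of the first exon. The upstream cluster, 16 of these cytosines, is shown as a nearly unmethylated promoter, with the CpGs measured in every library in capitals. The values of the region sum all 3 clusters.
Sfrp1, chr8:23411375-23411444, plus strand: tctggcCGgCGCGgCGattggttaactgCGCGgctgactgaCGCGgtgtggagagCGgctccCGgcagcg

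The start-site region of Sfrp1 was 2.34% and 1.85% methylated in the vehicle libraries, 1.10% and 1.01% with C29, 1.03% and 2.12% with 5-azadC, and 0.572% and 0.0508% with both, at 1676 to 3058 readings per library. The 16 upstream cytosines gave 3.16% and 0.581% in the vehicle libraries and 0% in the other 6. No library exceeded 2.34% over the whole region, and the vehicle level was already close to 0%. The 4 libraries with C29 averaged 0.684% and the 4 without 1.84%, a difference of -1.15 points that passed neither the exact permutation test over libraries (two-sided p = 0.0571) nor limma (adjusted p = 0.826).

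The body of Sfrp1 was read at 6 intronic cytosines, 5 of them between 7966 and 8143 bp downstream of the start. This stretch is shown because it holds most of the body cytosines, with the measured CpGs in capitals.
Sfrp1, chr8:23419462-23419651, plus strand: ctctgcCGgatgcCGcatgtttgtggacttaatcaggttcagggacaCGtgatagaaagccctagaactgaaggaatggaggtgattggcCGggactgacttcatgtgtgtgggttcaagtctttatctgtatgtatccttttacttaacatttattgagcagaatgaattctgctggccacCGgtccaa

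The body of Sfrp1 was 85.5% and 93.4% methylated in the vehicle libraries, 85.1% and 86.0% with C29, 66.04% and 69.9% with 5-azadC, and 83.4% and 63.3% with both. All 4 libraries with 5-azadC lay below all 4 without it, although the highest of them reached 83.4% against 85.1%. The means were 70.7% ± 8.94 (SD, n = 4) with 5-azadC and 87.5% ± 3.98 (SD, n = 4) without, a difference of -16.8 points (limma SE 5.09, adjusted p = 0.230). The exact permutation test gave p = 0.0286, the smallest that 4 libraries against 4 allow. Groups that do not overlap in this direction were found at 18.6% of all bodies, and the separation was lost with at least 20 reads per cytosine, with strands summed, with a start region of 500 bp and with the mean over cytosines. At the cytosine 7973 bp downstream, methylation was 100% in all vehicle, C29 and combination libraries, and 42.9% and 75.2% with 5-azadC alone, where it was called lower by the logistic test.

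A pair of cytosines further upstream of Sfrp1, at -1266 and -1253 bp, was 10.7% and 70.5% methylated in the vehicle libraries, 74.6% and 60.6% with C29, 100% and 100% with 5-azadC, and 47.1% and 68.4% with both. The 2 vehicle libraries were further apart than the 2 libraries of any treated group, and the readings numbered only 31 to 236 per library. With 2 cytosines the region was not tested. Singly, both cytosines were called higher with 5-azadC alone (logistic test, difference of 48.3 points at each).

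Sfrp2 (ENSMUSG00000027996.13, chr3:83766321-83774316, plus strand) is a ligand-binding antagonist expressed in stromal fibroblasts, and an antisense gene, Gm26771, overlaps its 3′ part. The 32 cytosines of its start-site region were 15.4% and 18.6% methylated in the vehicle libraries, 13.4% and 12.3% with C29, 13.7% and 10.8% with 5-azadC, and 10.5% and 14.5% with both. Both vehicle libraries were above the 6 treated libraries, the nearest of which stood at 14.5% against 15.4%. Of all start-site regions, 15.9% had both libraries with C29 below both vehicle libraries. For 5-azadC that share was 18.6%, and for the combination 17.6%. The differences from vehicle were -3.41, -4.35 and -3.74 points, and none reached 25 points. The level was uneven within the region. The 26 cytosines 31 to 203 bp downstream of the start stood at 1.31% to 14.0%, and the 6 in the coding part of the first exon, 559 to 601 bp downstream, at 23.0% to 66.4%.

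The coding stretch of Sfrp2 is shown because neighbouring CpGs in it differed in direction.
Sfrp2, chr3:83766874-83766928, plus strand: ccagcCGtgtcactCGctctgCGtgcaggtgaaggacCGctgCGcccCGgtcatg
The cytosine at 83766889 (minus strand, 568 bp downstream) was 0% methylated in both vehicle libraries, 58.7% and 52.2% with C29, 68.6% and 40.0% with 5-azadC, and 40.0% and 47.6% with both, and it was called higher in all 3 comparisons. The cytosine at 83766917 (minus strand, 596 bp downstream) was 100% in both vehicle libraries, 100% and 52.2% with C29, 68.6% and 12.7% with 5-azadC, and 31.4% and 50% with both, and it was called lower with 5-azadC and with the combination. In every treated library the first stood well above vehicle, while the second stood below it in 5 of 6. These 2 sites were read by as few as 18 reads in a library. The 6 cytosines upstream of Sfrp2 (-1955 to -1918 bp) were at 13.1% and 10.6% in the vehicle libraries, at 0.490% and 23.3% with C29, at 0% in both with 5-azadC, and at 1.46% and 4.53% with both.

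Sfrp5 (ENSMUSG00000018822.7, chr19:42197971-42202252, minus strand) encodes a ligand-binding antagonist best known from adipose tissue, and it was read at 11 cytosines from -3 to 154 bp around its start. Methylation of this region was 33.8% and 19.9% in the vehicle libraries, 31.9% and 24.4% with C29, 11.1% and 16.2% with 5-azadC, and 24.4% and 10.3% with both. The 3 lowest libraries all had 5-azadC, and the other library with it, at 24.41%, lay above vehicle replicate 2 and C29 replicate 2 (24.35%). The means were 15.5% ± 6.48 (SD, n = 4) with 5-azadC and 27.5% ± 6.50 (SD, n = 4) without, a difference of -12.0 points (limma SE 5.03, adjusted p = 0.367, exact permutation p = 0.0857). That difference stood at the 3.13th percentile of all start-site regions. Of those regions, 71.3% were under 10% methylated in the vehicle libraries and had little methylation to lose. No comparison with regions of a like vehicle level was made. The cytosine 111 bp downstream (plus strand), called lower in all 3 comparisons, was between 56.3% and 100% in the libraries without 5-azadC and between 0% and 51.2% in those with it.

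Among 9554 start-site regions with at least 10 cytosines, the highest r with Sfrp5 over the 8 libraries were at Nsg2 (Pearson r = 0.95), Cmtm3 (r = 0.943) and Ddx20 (r = 0.934). Their levels differed, at 6.36% to 16.5%, 0.831% to 8.99% and 0% to 0.804%, against 10.3% to 33.8% at Sfrp5. Sfrp5 was used for this ranking because its range over libraries was the widest of the members' start-site regions with at least 10 cytosines, and the regions share libraries and depth, so r is given as a description.

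Sfrp4 (chr13:19623104-19632994, plus strand), a ligand-binding antagonist known from bone and uterus, could not be read under the rule. In any library 25 of its cytosines were listed, but 0 in all 8, and 10 to 23 of them had 10 reads in a given library. In the comparison of 5-azadC with vehicle, 5 cytosines of its start-site region passed when only those 4 libraries were required, where the vehicle libraries stood at 39.3% and 0% and those with 5-azadC at 80% and 0%. The region was called higher by the logistic test there, with a difference of 27.0 points, while 1 library of each group was at 0%. For the combination the difference lay the other way. There 5 cytosines gave 39.3% and 0% with vehicle and 0% in both treated libraries, -19.7 points and not called. This alternative coverage rule was added after the data were seen.

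Frzb (ENSMUSG00000027004.3, chr2:80411970-80447625, minus strand), also known as Sfrp3, was read at 5 cytosines in a coding exon 1131 to 1177 bp downstream of its start and at 1 cytosine inside the start-site region. The exonic stretch is shown because it held the largest differences among the tested regions of these genes.
Frzb, chr2:80446442-80446500, minus strand: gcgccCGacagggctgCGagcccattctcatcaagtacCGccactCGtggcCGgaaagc
The 5 cytosines were 100% and 81.1% methylated in the vehicle libraries, 44.2% and 6.67% with C29, 71.4% and 33.6% with 5-azadC, and 63.0% and 100% with both. Both libraries with C29 alone and both with 5-azadC alone were below both vehicle libraries, whereas the combination overlapped vehicle. Both treated libraries lay below both vehicle libraries at 19.6% of all bodies with C29 and at 53.9% with 5-azadC. The body was called lower with C29 (difference -56.9 points, q = 1.44e-47) and with 5-azadC (-34.0 points, q = 2.11e-18) but not with the combination (-18.6 points, and 12.4 points without replicate 1 of the combination). Under the coverage rule added after the data were seen, the combination was also called lower, by -30.5 points at 7 cytosines. There both combination libraries, at 42.5% and 57.7%, were below both vehicle libraries, at 86.2% and 70.2%.

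Each of these 5 cytosines was crossed by 10 to 61 reads per library, in several libraries by the same number at all 5, so the calls rest on few reads of 1 short stretch. In limma, which uses the spread between libraries, the C29 difference was -65.1 points (SE 22.1, adjusted p = 0.882) and the 5-azadC difference -38.0 points (SE 22.1, adjusted p = 0.590). The interaction of both compounds was 94.1 points (SE 31.2, unadjusted p = 0.0321, adjusted p = 0.765). Without 5-azadC replicate 2 the 5-azadC difference was -16.2 points and no longer called. The single start-site cytosine was 34.8% in vehicle replicate 1 and 0% in the other 7 libraries, at 23 to 58 reads.

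**Figure D2:**
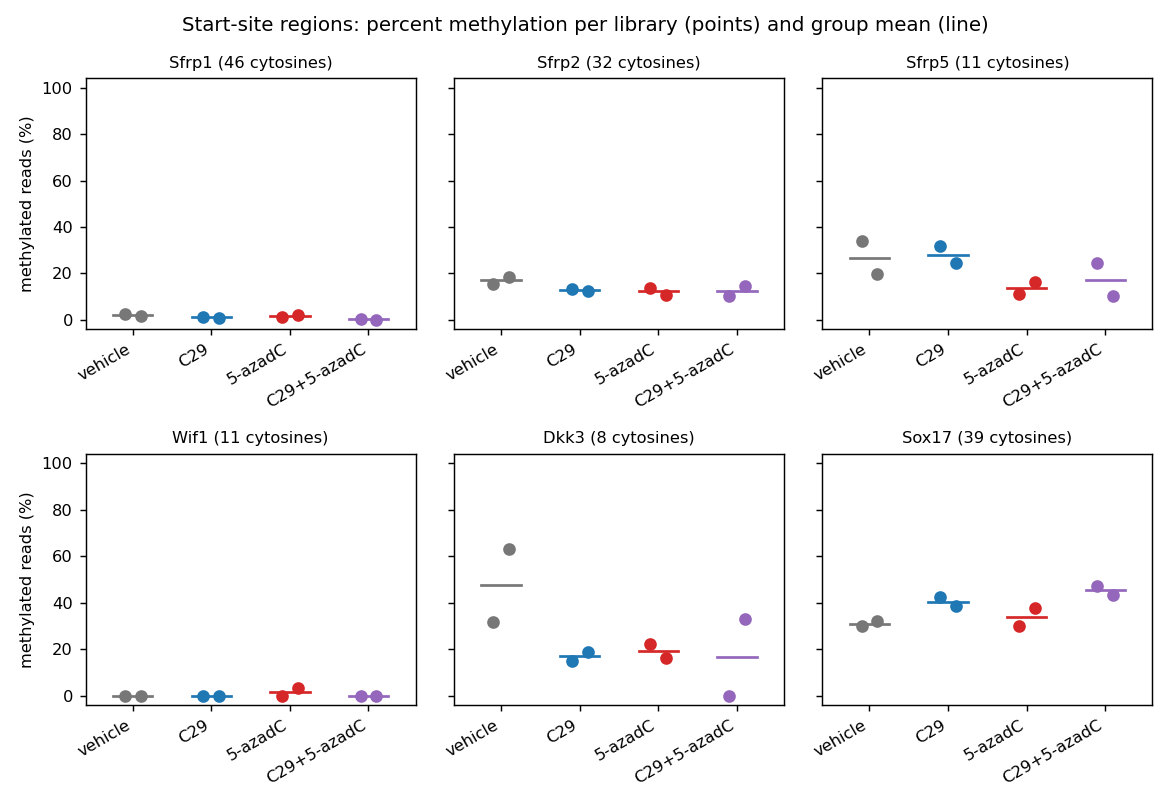
Percent methylation of the 6 tested start-site regions (vertical axis, methylated reads in %) in the 2 libraries of each group (points) with the group mean (line). Sfrp1 and Wif1 stay under 4% in every library, Dkk3 has its 2 vehicle libraries far apart, and the 4 libraries with C29 are the highest at Sox17.

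Wif1 (ENSMUSG00000020218.11, chr10:121033960-121100650, plus strand) binds Wnt ligands through its own domain and held 41 of the 230 cytosines, 11 of them around its start. The cluster 176 to 150 bp upstream is shown as the second unmethylated promoter of the set.
Wif1, chr10:121033778-121033816, plus strand: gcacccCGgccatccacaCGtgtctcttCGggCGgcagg
The start-site region was at 0% in 7 libraries and at 3.29% in 5-azadC replicate 2. With each read counted once per cluster and strand, the 7 libraries at 0% held 23 to 110 reads, for which a count of 0 allowed levels of up to 13.0% at the fewest reads and 2.73% at the most. All methylated readings in 5-azadC replicate 2 were at 1 cytosine, 30 bp upstream of the start (121033930, minus strand), which was 43.2% methylated on 37 reads there and 0% in the other libraries.

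The 30 body cytosines of Wif1 were 88.4% and 91.7% methylated in the vehicle libraries, 92.9% and 89.0% with C29, 86.2% and 85.3% with 5-azadC, and 85.0% and 78.8% with both. The 4 libraries with 5-azadC were all below the 4 without. The means were 83.9% ± 3.38 (SD, n = 4) and 90.5% ± 2.14 (SD, n = 4), a difference of -6.67 points (limma SE 1.89, adjusted p = 0.211, exact permutation p = 0.0286), and the groups stayed apart under each of 17 alternatives, whose differences ran from -8.22 to -5.12 points. The median over all bodies was -7.37 points, so Wif1 stood near the middle, at the 54.5th percentile.

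The Wif1 body held 7 clusters or lone cytosines, and 2 of them, both intronic, are shown because they were picked for having all 4 libraries with 5-azadC below all 4 without, a separation that 18.6% of all bodies, taken whole, also had.
Wif1, chr10:121063436-121063507, plus strand: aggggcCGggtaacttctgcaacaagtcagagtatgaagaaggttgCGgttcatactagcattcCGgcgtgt
Wif1, chr10:121063645-121063694, plus strand: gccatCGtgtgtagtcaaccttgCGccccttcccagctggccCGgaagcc
The first was at 86.1% to 99.7% without 5-azadC and at 74.6% to 85.2% with it. The second was at 92.3% to 100% without and at 67.7% to 86.0% with it. At its cytosine on the minus strand, 29691 bp from the start, the level was 76.9% and 100% in the vehicle libraries, 100% and 100% with C29, 34.5% and 24.5% with 5-azadC, and 58.1% and 35.7% with both. The 12 cytosines of a coding exon 49938 to 50004 bp downstream were at 88.1% to 89.97% without 5-azadC and at 76.2% to 88.7% with it, and the groups overlapped.

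**Figure D3:**
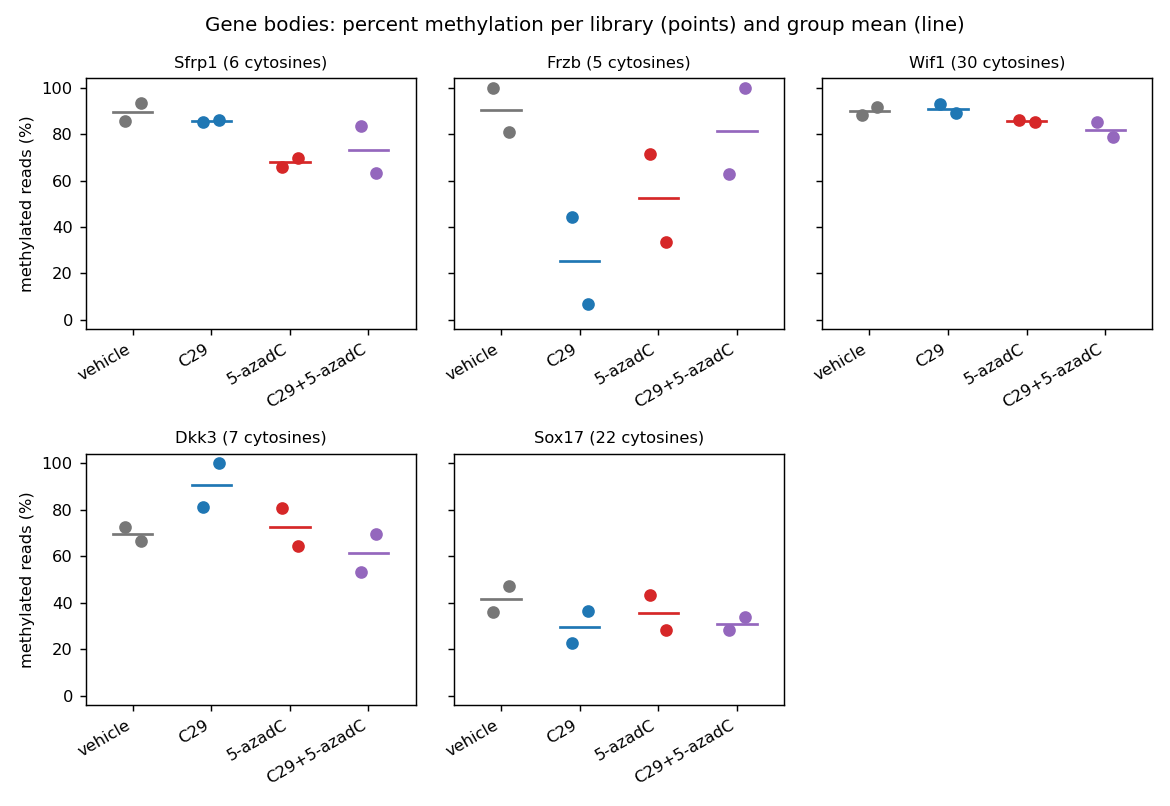
Percent methylation of the 5 tested gene bodies (vertical axis, methylated reads in %) in the 2 libraries of each group (points) with the group mean (line). All 4 libraries with 5-azadC lie below the other 4 at Sfrp1 and Wif1, and the libraries of a group lie far apart at Frzb.

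Dkk1 (chr19:30545863-30549665, minus strand) encodes the best known blocker of Lrp5 and Lrp6, and none of its cytosines passed the rule, with 45 listed in any library and 11 in all 8. Over the start-site cytosines with 10 reads in a given library, which differed between libraries, the level was 56.5% and 47.2% with vehicle, 54.6% and 48.7% with C29, 37.4% and 38.3% with 5-azadC, and 38.5% and 33.4% with both. The 4 libraries with 5-azadC were the lowest, but they were read at 11 to 25 cytosines that were not the same ones, so no difference was tested. Where only the 4 libraries compared had to be covered, 9 cytosines gave 61.2% and 48.2% with vehicle against 79.2% and 87.5% with C29, a called difference of 27.2 points, and 6 cytosines gave -16.2 points with 5-azadC, not called. For the combination, 15 cytosines gave 56.9% and 43.9% with vehicle against 45.3% and 55.3% with both, -1.39 points and not called. On those shared cytosines both combination libraries lay between the 2 vehicle libraries.

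Dkk2 (ENSMUSG00000028031.6, chr3:132085292-132180304, plus strand), a Dickkopf that can block or activate the pathway depending on its partners, kept 2 cytosines and no region that could be tested. The cytosine 267 bp downstream of its start was between 0% and 7.05% in all libraries. The intronic cytosine 15918 bp downstream was 100% in both vehicle libraries, 70.7% and 81.1% with C29, 0% and 97.9% with 5-azadC, and 100% in both with the combination. The cytosine was called lower with C29 and with 5-azadC, and the 0% in 5-azadC replicate 1 rested on 16 reads, which allow a level of up to 18.8%.

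Dkk3 (ENSMUSG00000030772.6, chr7:112116017-112159057, minus strand) is a divergent Dickkopf often studied as a tumor suppressor. Its start-site region was read at 8 cytosines 706 to 974 bp downstream of the start, 5 in a coding exon and 3 in an intron. The exonic stretch is shown because it holds most of the cytosines behind the C29 call.
Dkk3, chr7:112158297-112158357, minus strand: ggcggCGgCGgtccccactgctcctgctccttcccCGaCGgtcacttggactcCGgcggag
The region was 31.8% and 63.3% methylated in the vehicle libraries, 15.02% and 18.8% with C29, 22.2% and 16.4% with 5-azadC, and 0% and 33.0% with both. Both libraries with C29 and both with 5-azadC were below both vehicle libraries, and 1 combination library was not. Such a position below vehicle was found at 15.9% of all start-site regions with C29 and at 18.6% with 5-azadC. The 0% rested on 40 reads counted once per cluster, which allow a level of up to 7.50%. The region was called lower with C29 (-26.8 points, q = 3.53e-17) and missed the 25 points with 5-azadC (-24.1) and with the combination (-21.8). Under the coverage rule added after the data were seen, it was called lower in all 3 comparisons. The differences were -31.8 points with C29 (15 cytosines), -25.8 with 5-azadC (12) and -26.3 with the combination (12). Both combination libraries, at 26.9% and 38.7%, were then below both vehicle libraries, at 50.1% and 76.4%.

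The vehicle libraries of Dkk3 were 31.4 points apart, more than at 98.5% of all start-site regions. Without vehicle replicate 2 the C29 difference was -14.97 points, and without C29 replicate 1 it was -24.8 points, and neither was called. In limma the C29 difference was -30.6 points (SE 15.1, adjusted p = 1.00). The 5-azadC difference over all 8 libraries was -14.3 points (limma SE 10.7, adjusted p = 0.641, exact permutation p = 0.4). That stood at percentile 2.03 of all start-site regions, most of which had little methylation to lose in the vehicle libraries. The body of Dkk3, read at 7 cytosines, was 72.6% and 66.7% in the vehicle libraries, 81.3% and 100% with C29, 80.9% and 64.6% with 5-azadC, and 53.1% and 69.6% with both. There the C29 libraries were the highest and the others overlapped, and no difference from vehicle reached 25 points. Both libraries with C29 lay above both vehicle libraries at 14.0% of all bodies.

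Sox17 (ENSMUSG00000025902.13, chr1:4490931-4497354, minus strand) held 61 of the 230 cytosines, the most of any member. The annotation gives it 7 starts of coding transcripts, so its start-site region reached far into the gene, and a gene on the other strand, Gm37587, overlaps its 5′ end. The start-site region, 39 cytosines, was 29.9% and 32.0% methylated in the vehicle libraries, 42.4% and 38.5% with C29, 29.9% and 37.7% with 5-azadC, and 47.4% and 43.3% with both. All 4 libraries with C29 were above all 4 without it, with 38.5% against 37.7% as the nearest values.

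The means at the Sox17 start-site region were 42.9% ± 3.66 (SD, n = 4) with C29 and 32.4% ± 3.69 (SD, n = 4) without, a difference of 10.5 points (limma SE 2.29, unadjusted p = 0.00692, adjusted p = 0.642, exact permutation p = 0.0286). Groups that do not overlap in this direction occurred at 0.805% of all start-site regions and at 1.28% of all bodies. Over 17 alternatives the difference stayed between 8.58 and 16.3 points, but the groups overlapped in 3 of them, with at least 5 reads, with at least 20 reads and with only the 5′ end of the gene as the start. From vehicle, the difference was 9.59 points with C29, 3.93 with 5-azadC and 14.4 with both, under the 25 points of a call.

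Of the clusters in the start-site region of Sox17, the 9 cytosines of a coding stretch 3958 to 4012 bp downstream of its start had the largest C29 difference. They were 31.5% and 35.2% methylated in the vehicle libraries, 65.7% and 35.3% with C29, 29.7% and 46.2% with 5-azadC, and 64.7% and 62.2% with both. The second C29 library was at the vehicle level, so the difference was carried by 3 libraries. Within it, the cytosine at 4493351 (minus strand, 4003 bp downstream) was 0% in both vehicle libraries, 67.7% and 24.4% with C29, 0% and 56.2% with 5-azadC, and 92.9% and 82.9% with both. The 11 cytosines of the 5′ untranslated region, 66 to 242 bp downstream, were at 27.6% to 37.8% without C29 and at 34.3% to 69.0% with it.

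The body of Sox17 was not called in any comparison. Its 22 cytosines were 36.1% and 47.1% methylated in the vehicle libraries, 22.7% and 36.6% with C29, 43.4% and 28.1% with 5-azadC, and 28.1% and 34.0% with both. Values of the groups overlapped, and the difference with against without C29 was -8.35 points (limma adjusted p = 0.977). A cluster of 4 coding cytosines 4742 to 4754 bp downstream is shown because it had both the widest gap between vehicle libraries and the lowest C29 values.
Sox17, chr1:4492594-4492618, minus strand: gaggcCGagCGgctgCGCGtgcagc
It was at 17.0% and 67.5% in the vehicle libraries, 0% and 1.82% with C29, 31.2% and 21.8% with 5-azadC, and 13.9% and 26.7% with both.

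**Figure D4:**
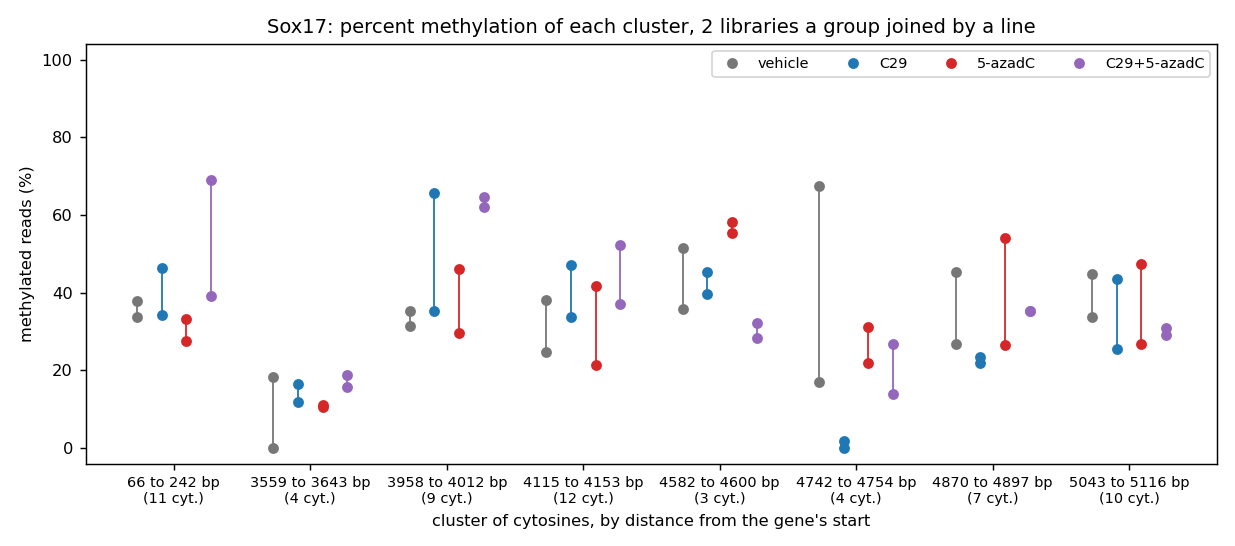
Percent methylation (vertical axis, methylated reads in %) of each cluster of at least 3 cytosines of Sox17, ordered by distance from the gene's start in bp, with the 2 libraries of a group joined by a line. The combination reaches 62.2% to 64.7% at the cluster 3958 to 4012 bp downstream, while further clusters overlap or lie the other way, and many lines span more than 10 points.

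Counted over the set, the logistic test with q below 0.01 and 25 points called few regions. C29 against vehicle called 1 of 6 start-site regions (Dkk3, lower) and 1 of 5 bodies (Frzb, lower), where 0.946% of all start-site regions and 1.46% of all bodies were called. 5-azadC against vehicle called 0 of 6 and 1 of 5 (Frzb, lower), against 1.1% and 4.57%, and the combination called 0 of 6 and 0 of 5, against 1.19% and 3.87%. The 3 comparisons share the 2 vehicle libraries. With 1 library left out these counts moved. C29 called 1 region without vehicle replicate 2, 5-azadC called 3 without vehicle replicate 1, 2 without 5-azadC replicate 1 and 0 without 5-azadC replicate 2, and the combination called 1 whichever of its 4 libraries was left out. By the same logistic test, 10 of the 11 regions had an unadjusted p under 0.05 for the combination, 9 for 5-azadC and 8 for C29, a test that does not count the spread between replicates. With edgeR and with limma, which count that spread, 0 regions of these genes were called at an adjusted p below 0.05 in any of the 3 comparisons, while an unadjusted p under 0.05 was reached at 0, 1 and 1 regions by edgeR and at 2, 1 and 3 by limma, in the order C29, 5-azadC and combination.

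Over all 8 libraries limma called 0 of the 11 regions for 5-azadC, 0 for C29 and 0 for their interaction, with an unadjusted p under 0.05 at 2, 2 and 1 of them. Of all 22517 regions it called 0.226% for 5-azadC and 0% for C29 and for the interaction. All 4 libraries with 5-azadC were below all 4 without at 0 of 6 start-site regions and at 2 of 5 bodies, against 1.95% and 18.6% of all. The median 5-azadC difference over the 6 start-site regions was -1.59 points, beside -0.0828 over all start-site regions. Most of the latter had little methylation to lose in the vehicle libraries. Over the 5 bodies the median difference was -6.67 points, beside -7.37 over all bodies.

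**Figure D5:**
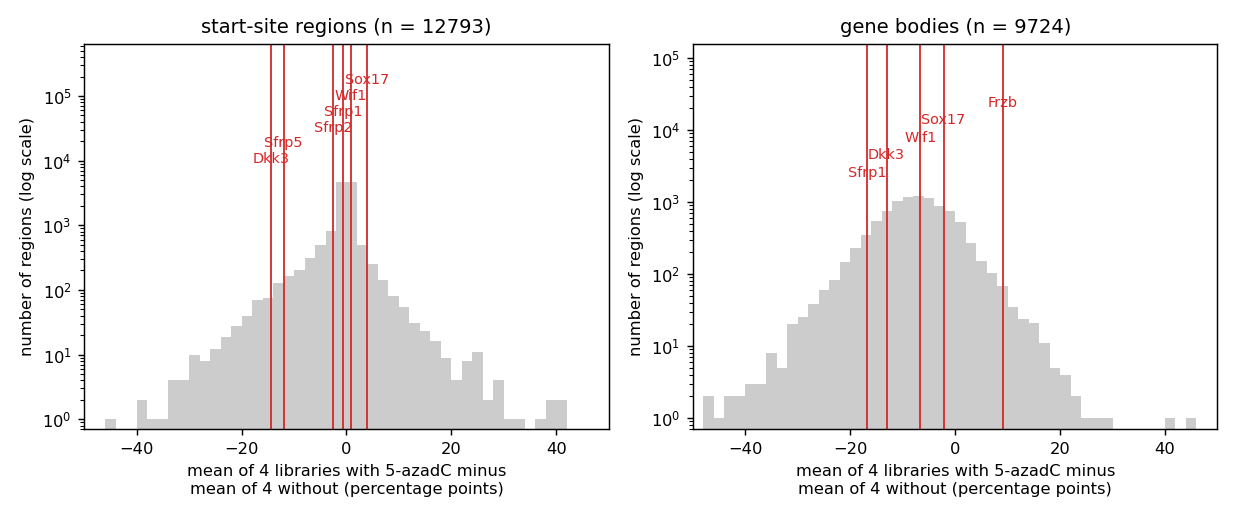
Difference between the mean of the 4 libraries with 5-azadC and the mean of the 4 without, in percentage points (horizontal axis), for all start-site regions and all gene bodies (grey, number of regions on a log scale), with the members as red lines. Dkk3 and Sfrp5 lie at -14.3 and -12.0 points on the low side of the start-site regions, and the bodies of Sfrp1, Dkk3, Wif1 and Sox17 lie within the bulk of all bodies while Frzb lies at 9.03.

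Single cytosines were called more often, in both directions. C29 against vehicle called 46 of 230 (20%), 28 lower and 18 higher, where 10.7% of all cytosines were called, 5.93% lower and 4.73% higher. 5-azadC called 35 (15.2%), 25 lower and 10 higher, where 13.1% of all were called, 10% lower and 3.12% higher. The combination called 38 (16.5%), 23 lower and 15 higher, where 13.5% of all were called, 9.51% lower and 3.99% higher. Both treated libraries lay outside both vehicle libraries at 26, 21 and 23 of these calls (56.5%, 60% and 60.5%), near the 59.8%, 64.3% and 58.6% of all called cytosines. Without vehicle replicate 1 the calls numbered 63 for 5-azadC and 61 for the combination. Of the 46 C29 calls, 20 were in Sox17, 9 in Dkk3, 8 in Sfrp2 and 5 in Frzb, and 0 in Sfrp1 or Wif1.

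Cytosines with all libraries of a factor on 1 side were few. All 4 libraries with 5-azadC were below all 4 without at 3 of the 230 (1 in Sfrp5 and 2 in Wif1), beside 1.52% of all cytosines. All 4 with C29 were above all 4 without at 4 of the 230 (3 in Sox17 and 1 in Sfrp5), beside 0.498% of all cytosines. They were below at 1 of the 230 (in Wif1), beside 0.44% of all. With an F test that corrects for overdispersion between libraries, 0 of the 230 were called in each comparison, and 11, 5 and 6 had an unadjusted p under 0.05, where the logistic test gave 121, 112 and 97.

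The rest of the pathway was read from lists of 68 genes (ligands, receptors, R-spondins, other inhibitors, TCF factors and coactivators, and SoxF relatives). Of their start-site regions 58 were tested and 0 were called in any comparison with vehicle, and at 0 of them were the 4 libraries with 5-azadC all lower, beside 1.95% of all start-site regions. Of their bodies 56 were tested. C29 called 3 (1.46% over all bodies), Kremen2 (a Dickkopf receptor, -34.1 points), Znrf3 (a ligase that removes Frizzled receptors, 26.0 points) and Sox7 (33.1 points). 5-azadC called 1 (4.57% over all), Pygo2 (-32.3 points), and the combination called 0 (3.87% over all). These logistic calls rested on few cytosines, 8 at Kremen2, 6 at Znrf3, 3 at Sox7 and 3 at Pygo2. Their vehicle libraries stood at 66.3% and 82.7%, 52.4% and 58.2%, 16.5% and 42.5%, and 100% and 72.7%, in that order. At 12 of the 56 bodies all 4 libraries with 5-azadC were below the others, namely Wnt7a, Wnt7b, Fzd3, Fzd6, Lrp5, Ror1, Ryk, Notum, Rnf43, Axin2, Tcf7l1 and Lef1, beside 18.6% of all bodies, and the median difference of the 56 was -6.67 points, beside -7.37 over all bodies. Among start-site regions of at least 10 cytosines in these lists, the largest 5-azadC differences were at Wnt1 (-12.7 points, adjusted p = 0.772 by limma), Draxin (-7.23), Wnt9b (-6.24), Wnt10b (4.36) and Wnt5a (-4.29). Their libraries with and without 5-azadC overlapped, as at Wnt1, where the values with it ran from 0.592% to 49.4% and those without from 25% to 57.0%.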

How the data were processed

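RRBS was run on 8 libraries of tumor DNA (4 treatments, 2 pools each). The submitters' processing notes name FastQC 0.11.8, Trim Galore 0.4.1, Bismark 0.20.0 and methylKit 1.7.0, with reads on GRCm38 (mm10). The authors deposited, per library and CpG cytosine, the methylation level and the coverage as a count of reads; the deposited level, a fraction or percent of reads, times coverage gave whole methylated reads at nearly every cytosine. Cytosines needed 10 reads in all 8 libraries. Reads were summed per region of GENCODE M21 genes, and each treatment was compared with vehicle by a logistic likelihood ratio test (called at q below 0.01 and 25 percentage points), across all regions or cytosines. Effects over all 8 libraries came from limma 3.58.1 on percent methylation, with edgeR 4.0.16 as an alternative (R 4.3.3). Single values had two-sided exact permutation tests, whose smallest p is 0.0286 for 4 libraries against 4 and 0.333 for 2 against 2. Separate pools may still share technical spread. Scripts used Python 3.11.15, NumPy 2.4.6, SciPy 1.17.1, pandas 2.3.3, pysam 0.24.0 and matplotlib 3.10.9, and were tested on simulated data. Sequences came from the GRCm38 reference, and not all of them are printed. All members were named; other pathway genes by rule were the 5 with the largest 5-azadC difference at a start-site region of at least 10 cytosines, likeness was by Pearson r, and cytosines were those called with both treated libraries outside both vehicle libraries, at most 5 per gene. Pathway genes named for their bodies, and cytosines named for separating all libraries, were picked after their values were seen. The members and lists were chosen with earlier results of these data known.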

Additional observations from a re-analysis of the deposited data

Results flagged for a closer look

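At 9 cytosines the effect of 1 compound had opposite signs without and with the other, every treated library moving one way in one arm and the other way in the other. Only named cytosines were searched, each already called in a comparison with both treated libraries outside both vehicle libraries. A move in 1 arm was thus partly set by that selection. The share of all cytosines with such opposite signs was not counted. The difference between arms was not tested, and each group had 2 libraries. At the Sfrp2 cytosine 83766889 the 5-azadC difference was 54.3 points without C29 and -11.6 with it. In the Frzb exon, the C29 difference at 80446461 was -77.9 points without 5-azadC and 22.4 with it, the 5-azadC difference there was -36.3 without C29 and 64.0 with it, and the C29 difference at 80446448 was -58.5 and 64.3. At the Dkk2 intronic cytosine 132101210 the C29 difference was -24.1 points without 5-azadC and 51.1 with it, and the 5-azadC difference was -51.1 and 24.1.

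In Sox17, the C29 difference at 4493396 was 40.5 points without 5-azadC and -25.9 with it. At Sox17 4493230 the C29 difference was 33.5 and -18.7 points and the 5-azadC difference 35.8 and -16.4. At Sox17 4493344 the 5-azadC difference was -13.2 points without C29 and 49.0 with it. At the Sfrp1 upstream cytosine 23410236 the 5-azadC difference was 59.4 and -14.8 points, and at the Wif1 cytosine 121099903 it was 28.7 and -50.3.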

How the results depend on the processing

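The number of member regions called for C29 (2) was 0 with 20 reads, 1 with 500 bp, 0 with the F test, edgeR or limma, and 4 at 10 points. For 5-azadC (1) it was 2 with strands summed or regions of 1 cytosine, 0 with the F test, edgeR or limma, 4 at 10 points, and 3 with 10 reads in only the 4 libraries compared, an alternative added after the data were seen. For the combination (0) it was 6 at 10 points and 2 with that added coverage rule. Leaving out 1 library gave 1 to 2, 0 to 3 and 1 to 1. Member cytosines called (46, 35 and 38) were 7, 6 and 11 with 20 reads, 0, 0 and 0 with the F test, 82, 65 and 69 at 10 points, 93, 67 and 66 with the added coverage rule, and 42 to 63, 42 to 63 and 38 to 61 without 1 library. The 5-azadC counts rose to 63 and the combination's to 61 without vehicle replicate 1.

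Library numbers did not pair the samples, with correlations of same-numbered deviations between -0.0174 and 0.0359. With a replicate block, regions called were 2, 1 and 0 and cytosines 42, 33 and 37.

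Effects over 8 libraries were called at 0 member regions under each of 18 alternatives. Among uncalled effects, the sign turned for Sox17 body by 5-azadC (0.180 with 500 bp, 1.748 with only the gene's 5′ end, 1.05 as a mean over cytosines, -6.04 to 1.61 without 1 library), Frzb body by 5-azadC (-0.425 to 18.5), Sfrp1 body by C29 (-1.37 with 5 reads, -1.33 with strands summed, -5.52 with 500 bp, -4.27 to 5.80), Sfrp5 start by C29 (-6.12 with 20 reads, -0.985 to 6.05), Dkk3 body by C29 (-11.4 with 500 bp), Sox17 body by C29 (2.11 with only the 5′ end) and Wif1 body by C29 (-3.03 to 0.0645). Of 414 differences from vehicle, all alternatives counted, 20 had another sign, among them Frzb body by the combination (-30.9 to 12.4 without 1 library). The cause was not tested.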

Other observations

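Both strands of 1 CpG in the 5′ untranslated region of Sfrp5 had unlike patterns. At 42202141 all 4 libraries with 5-azadC were lower, and at 42202142 all 4 with C29 were higher (62.5% to 100% against 0% to 61.8%). In Wif1 the coding cytosine 121083898 was lower in all 4 libraries with C29, at 21.2% to 73.5% against 75% to 83.3%.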
